A study of Sus scrofa with 6 samples.

Results

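MiR-320 and miR-484 are miRNAs made without the Microprocessor, the nuclear complex of Drosha and DGCR8 that cuts most miRNA hairpins out of a longer transcript. They were chosen by name, as every line of the miRNA table whose first name starts with ssc-miR-320 or ssc-miR-484. This gave 2 of the 1143 miRNAs in the table, ssc-miR-320-3p and ssc-miR-320-5p, which are both arms of one hairpin. MiR-484 was not analysed here, as the rule matched 0 of the lines used by that name. The values came from small RNA libraries of longissimus dorsi muscle, 3 from Meishan (MS, an obese Chinese breed) and 3 from Large White (LW, a lean breed). All 6 animals were females, no treatment is named, and by the paper's methods the 3 of a breed came from different sows, so that each library was 1 animal. The paper describes fetuses at 35 days post-conception (dpc), whereas the sample labels give adults of 2 years; labels and paper give the same breeds. Values are called normalized reads here, for which the authors took a miRNA's most abundant sequence and scaled its reads to the mappable reads of the library.

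In human and mouse cells the miR-320 precursor is known to be a short RNA polymerase II transcript that is already a hairpin. It keeps the cap of its transcript at the 5′ end, leaves the nucleus by exportin-1 and is cut by Dicer alone. The capped 5p arm is poorly loaded into Argonaute, and the 3p arm is the one that pairs with target mRNAs through its seed, bases 2 to 8 from the 5′ end. MiR-320 is found in many tissues, and in skeletal muscle of human and mouse it has been linked to glycolysis through the muscle form of phosphofructokinase.

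The 3 sequences below are the arms of miR-320 and a candidate miRNA of this table from a predicted hairpin, PC-31-3p, that has the same seed as miR-320-3p. The prefix PC is read here by the class the table itself gives, since the study's methods text assigns the prefixes PC and PN the other way round. They are shown 5′ to 3′ as the table lists them, with the seed in capitals, because the seed decides which listed miRNAs belong together.
miR-320-3p: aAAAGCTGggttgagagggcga
miR-320-5p: gCCTTCTCttcccggttcttcc
PC-31-3p: aAAAGCTGggttgagagggcaa

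PC-31-3p was the 1 other listed miRNA with the seed of miR-320-3p, and 0 others had the seed of miR-320-5p. Counted from 1 at the 5′ end, PC-31-3p differs from miR-320-3p by the substitution G21A, near the 3′ end and outside the seed. Each of the 3 sequences is 22 bases long. MiR-320-3p is rich in purines (A and G), with 17 of 22 bases or 77.3%, and 98.0% of the listed miRNAs had a smaller share. MiR-320-5p is its counterpart with 3 purines or 13.6%, where the median of the listed miRNAs was 47.8%. The GC content was 54.5% in miR-320-3p, 59.1% in miR-320-5p and 50% in PC-31-3p.

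In the RefSeq gene table of Sscrofa11.1 MIR320 lies on chromosome 14 with a model of 80 bases, and this model overlaps that of POLR3D, which encodes a subunit of RNA polymerase III. The hairpin that the authors predicted for PC-31 is also on chromosome 14, on the minus strand of Sscrofa10.2 at chr14:6954909-6954989. These positions come from different builds and were not compared, so whether both lie at 1 locus was not tested by position. The PC-31 hairpin is shown with its mature sequence in capitals, because it holds the near copy of miR-320-3p at bases 39 to 60.
PC-31 hairpin: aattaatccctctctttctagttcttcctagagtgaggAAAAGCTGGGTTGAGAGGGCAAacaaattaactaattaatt

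The listed hairpin has 79 bases, against 81 between its listed positions. Folded with RNAfold it had a free energy of -26.3 kcal/mol, with 16 of the 22 mature bases paired. Its 5′ side, at bases 21 to 28, shares the run GTTCTTCC with miR-320-5p, where the run starts at base 15. This run of 8 bases is the longest that the hairpin and miR-320-5p have in common. The PC-31 hairpin as listed thus does not hold the 22 bases of miR-320-5p, and by sequence it is not the hairpin that gives this arm.

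MiR-320-3p was an abundant miRNA in both breeds and was lower in MS. It had 7624.6, 5796.4 and 8828.4 normalized reads in MS replicates 1, 2 and 3, against 18604, 36818 and 29243 in LW replicates 1, 2 and 3. All MS libraries lay below all LW libraries, and the lowest LW value was 2.11 times the highest MS value. The means were 7416 ± 1527 normalized reads in MS and 28222 ± 9150 in LW (SD, n = 3 each), so that MS had 26.3% of the LW mean. The log2 fold change of MS over LW was -1.89 (standard error, SE, 0.29; limma's adjusted p = 0.00014 by the Benjamini-Hochberg method, on log2(normalized reads + 1)). Of all 548 miRNAs tested 28.1% were called lower in MS and 62.2% were called in either direction, so that a call was common in these libraries. The median log2 fold change of the 548 miRNAs was 0.11. MiR-320-3p had the 63rd lowest log2 fold change among them, and the 27th lowest among the 179 abundant miRNAs, those whose mean passed 1000 normalized reads in at least 1 breed. An exact permutation test of its normalized reads gave p = 0.10 (two-sided, n = 3 each), and with 3 animals against 3 no smaller p is possible. In muscle tissue, fewer cells with a miRNA and less of it per cell cannot be told apart.

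**Figure D1:**
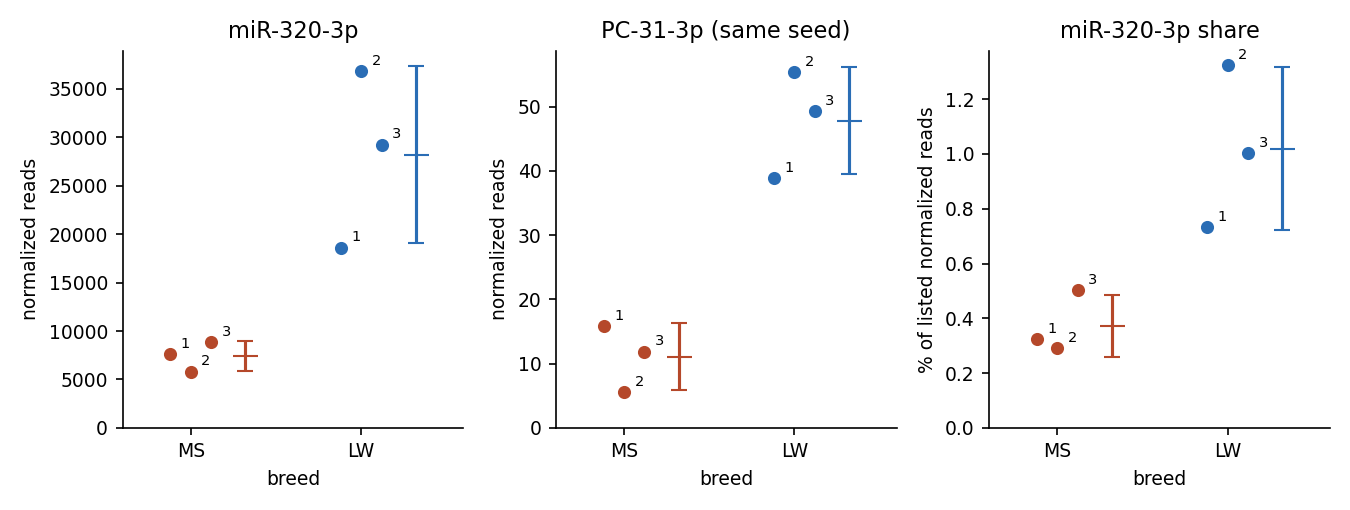
Normalized reads of miR-320-3p (left) and PC-31-3p (middle), and the percent of all listed normalized reads in miR-320-3p (right), in Meishan (MS) and Large White (LW) muscle. Points are libraries with their replicate number, and bars are the mean ± SD of 3 libraries; in each panel the 3 MS points lie below the 3 LW points.

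The normalized reads of all listed miRNAs summed to 1757879 to 2362082 in MS libraries and to 2541224 to 2914028 in LW libraries, so the difference was also taken within libraries. MiR-320-3p held 0.323%, 0.291% and 0.502% of the listed reads in MS replicates 1, 2 and 3, against 0.732%, 1.32% and 1.004% in LW replicates 1, 2 and 3. The lowest share of LW thus lay above the highest of MS. Mean shares were 0.372% ± 0.114 in MS and 1.02% ± 0.30 in LW (SD, n = 3 each; two-sided exact permutation test, p = 0.10, the smallest possible). The shares rested on 10596, 6313 and 5218 recovered reads in MS and on 14850, 45263 and 32015 in LW. Their exact 95% intervals were narrow, at 0.489% to 0.516% in MS replicate 3, the shallowest library, and 1.31% to 1.34% in LW replicate 2. Intervals and limits here cover counting error only. When all libraries were scaled to the same sum, the median log2 fold change of the tested miRNAs moved up by 0.43, and miR-320-3p was at -1.46 and still called (limma's adjusted p = 0.0014).

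Among the 3 animals sampled per breed miR-320-3p varied more in LW. This difference in spread was not tested, and an SD from 3 animals is only a rough value. Its highest value was 1.52 times its lowest in MS and 1.98 times in LW. On the log2 scale the SD was 0.31 in MS, close to the median of 0.31 over the 179 abundant miRNAs. In LW it was 0.50, against a median of 0.27, and 89.4% of the abundant miRNAs had a smaller SD there. LW replicate 1 was the low library. Without it the log2 fold change was -2.17, and without LW replicate 2, the highest library, it was -1.67, both called.

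In the order of mean levels miR-320-3p stood at rank 49 in MS and at rank 26 in LW among the 1143 miRNAs. Single libraries placed it between ranks 43 and 60 in MS and between 23 and 35 in LW. Its neighbours in MS were ssc-miR-181b-1-5p at 7588 ± 614 normalized reads, a miRNA of the miR-181 family, and ssc-miR-423-3p at 7120 ± 2789 (SD, n = 3 each). In LW they were ssc-miR-125a-5p at 28512 ± 6105, a relative of the lin-4 miRNA of worms, and ssc-miR-191-5p at 26934 ± 7541 (SD, n = 3 each). These neighbours differed from miR-320-3p by less than the SD between animals.

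MiR-320-5p, the arm on the capped side in human and mouse, had almost no reads. It was listed at 0 in the 3 MS libraries and in LW replicates 1 and 2, and at 1.83 normalized reads, or 2 recovered reads, in LW replicate 3. It did not reach the mean of 10 normalized reads needed for the test. In MS 0 of 22127 miR-320 reads were from the 5p arm, which allows a share of up to 0.0136%. In LW 2 reads were from the 5p arm beside 92128 from the 3p arm. A breed difference in this arm was not detectable at this depth. Over all 6 libraries the 5p arm took 0.00175% of the reads of both arms (exact 95% interval 0.00021% to 0.0063%). The table allows a comparison with other hairpins, since 115 known hairpins had both arms listed and the major arm above a mean of 1000 normalized reads over the 6 libraries. The median share of the minor arm was 0.852% over these, and that of miR-320 was the 2nd lowest. Hairpins whose minor arm was not listed were left out, so they could not rank below miR-320. Arms were paired by name, so a mature sequence made from several hairpins was set against the other arm of 1 of them. The values count only the most abundant sequence of each arm.

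PC-31-3p, the near copy of miR-320-3p, was far scarcer and was also lower in MS. It had 15.8, 5.51 and 11.8 normalized reads in MS replicates 1, 2 and 3, against 38.8, 55.3 and 49.3 in LW replicates 1, 2 and 3. The breeds did not overlap. Its log2 fold change was -2.11 (SE 0.45, limma's adjusted p = 0.0015), and it rested on 6 to 22 recovered reads in MS libraries and 31 to 68 in LW libraries. Set against miR-320-3p of the same library, PC-31-3p amounted to 0.208%, 0.0950% and 0.134% in MS and to 0.209%, 0.150% and 0.169% in LW. These ratios overlapped between the breeds, with means of 0.146% ± 0.057 in MS and 0.176% ± 0.030 in LW (SD, n = 3 each; two-sided exact permutation test, p = 0.40). In no library did PC-31-3p pass 0.209% of miR-320-3p. A read of miR-320-3p that carries G21A would be identical to PC-31-3p, and how many reads arose in that way was not tested.

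Breed differences and the GC content of miRNAs were related in these libraries. Of the 120 tested miRNAs under 40% GC, 86 were called higher and 8 lower in MS, whereas of the 270 at 50% and above 42 were called higher and 103 lower. MiR-320-3p is on the GC-rich side. The other 92 tested miRNAs within 3 percentage points of its GC content had a median log2 fold change of -0.54, with 15 called higher and 35 called lower in MS. Of these 92, 10 had a lower log2 fold change than miR-320-3p. After each library was corrected for GC content by a loess curve, miR-320-3p was at -1.01 (standard error 0.28) and still called lower (limma's adjusted p = 0.011), and PC-31-3p was at -1.45 (limma's adjusted p = 0.014). The difference in miR-320-3p was thus smaller with this correction than under the settings tried without it.

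**Figure D2:**
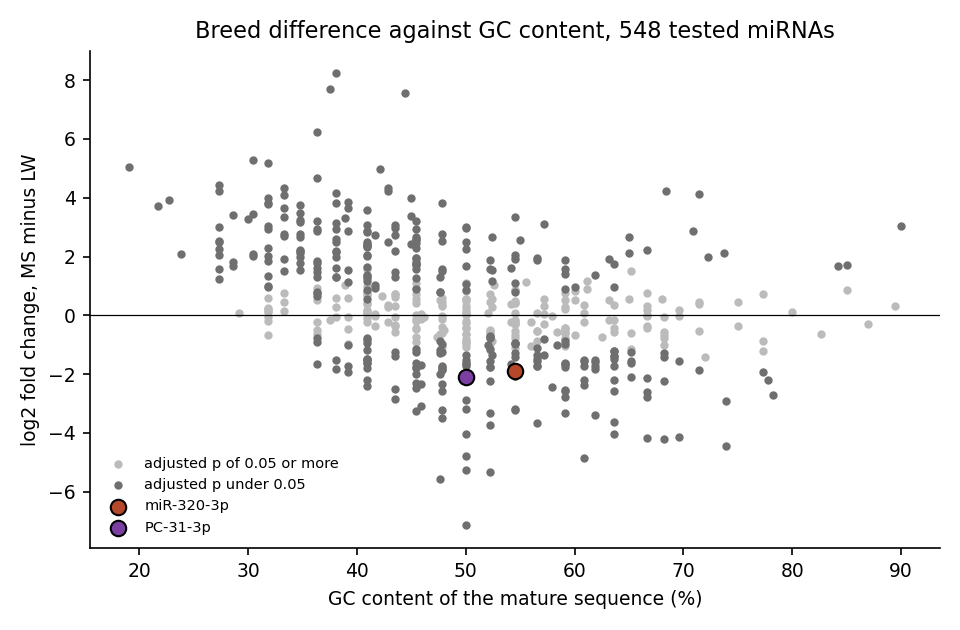
Log2 fold change of MS over LW (vertical axis) against GC content in percent of the mature miRNA (horizontal axis) for the 548 tested miRNAs. Dark points have an adjusted p under 0.05. MiR-320-3p is at 54.5% and -1.89, and PC-31-3p is at 50% and -2.11. Of the 270 tested miRNAs at 50% GC and above, 103 were called lower and 42 higher in MS.

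**Figure D3:**
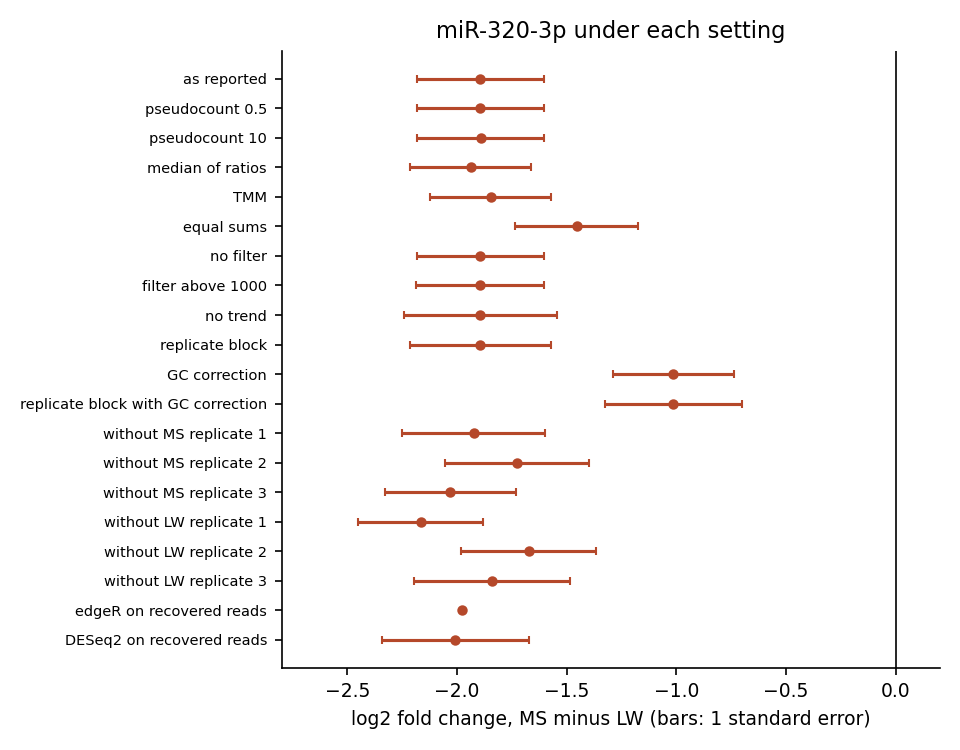
Log2 fold change of miR-320-3p, MS over LW (horizontal axis), as reported and under each other setting (rows). Points are estimates and bars 1 standard error, with no bar for edgeR; all points lie below 0, from -2.17 without LW replicate 1 to -1.01 after the GC correction.

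The tissue was checked by miRNAs that mark cell types. Among all 548 miRNAs tested, 187 were called higher and 154 lower in MS. The marker lists are small, and counts such as 2 of 4 or 1 of 3 are not read as a result about those cells. Marker calls and sums are given without the GC correction, and the part of GC content in them was not tested. The 6 skeletal muscle miRNAs (such as miR-1-3p and miR-206-3p) were all present and all called higher in MS, with sums of 65946 to 96651 normalized reads in MS libraries and 19810 to 24646 in LW libraries. MiR-206-3p passed narrowly (limma's adjusted p = 0.047). Their GC content was 22.7% in miR-1-3p, 31.8% in miR-208b-3p and miR-499-5p and 36.4% in miR-206-3p. It was 52.4% in miR-133b-3p and 54.5% in miR-133a-3p. Of the 4 erythroid miRNAs 3 were called higher in MS, with sums of 6103 to 10759 in MS and 3508 to 4569 in LW. Of 4 matched leukocyte miRNAs 2 were called higher in MS, with sums of 1235 to 1697 in MS and 277 to 444 in LW. Of the 3 neural miRNAs 1 was called higher, with sums of 1657 to 4190 in MS and 387 to 1402 in LW. Markers that moved in the direction of miR-320-3p were miR-140-3p of cartilage and miR-122-5p of liver. The sum of miR-140-3p and miR-140-5p was 4540 to 10576 in MS and 54414 to 71203 in LW, and 1 of the 2 was called lower. MiR-122-5p had 46.8 to 89.1 normalized reads in MS and 182 to 2860 in LW. No matched marker was at 0 in any library, and the part of other cell types in the difference of miR-320-3p was not tested.

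Other miRNAs that bypass a step of the usual pathway included members called in each direction. The list held 9 miRNAs known from human or mouse: the mirtrons miR-877, miR-1224, miR-1225, miR-1226 and miR-1229, which are short introns freed by splicing, miR-664, miR-1248 and miR-1291, which come from small nucleolar RNAs, and miR-451, which is cut by Argonaute 2 in place of Dicer. It held 12 listed arms of 7 of these miRNAs, and 5 arms were abundant enough for the test. Of the 5, 2 were called lower (against 28.1% of all miRNAs tested), 1 was called higher and 2 were not called. A call in either direction was made for 62.2% of all miRNAs tested, so 3 of 5 is close to the background. The median log2 fold change of the 5 arms was -1.04, beside 0.11 over all 548 miRNAs. This median is the value of PN-100-5p, an arm that was not called, so it does not describe a shift of the 5 arms. Of the 5 arms 2 are from 1 hairpin, that of miR-664.
The mirtron arm miR-1224-5p had 7.92, 6.43 and 1.69 normalized reads in MS, against 23.8, 40.7 and 38.4 in LW. All MS libraries lay below all LW libraries (log2 fold change -2.61, SE 0.53, limma's adjusted p = 0.0011), although the MS values stand for few reads. After the GC correction the log2 fold change was -1.72 (limma's adjusted p = 0.022). Of the snoRNA-derived hairpin of miR-664 the 5p arm was lower in MS, with 20.9, 12.9 and 15.2 normalized reads, against 113, 177 and 195 in LW (log2 fold change -3.22, SE 0.37, limma's adjusted p = 2.2e-05). Its 3p arm did not pass, with 8.63, 18.4 and 11.8 normalized reads in MS and 12.5, 17.9 and 11.9 in LW (log2 fold change -0.15, adjusted p = 0.78). After the GC correction both arms were called lower, the 5p arm at -2.76 (limma's adjusted p = 0.00014) and the 3p arm at -1.37 (limma's adjusted p = 0.019). The difference between the arms was not tested. PN-100-5p, whose hairpin matches mir-1291 of cattle, had 2.16, 6.43 and 1.69 normalized reads in MS and 16.3, 15.5 and 0.91 in LW. LW replicate 3 fell below all MS libraries, and the log2 fold change of -1.04 did not pass (limma's adjusted p = 0.29). Without LW replicate 3 it was -2.08 and called. After the GC correction it was -0.14 and not called (limma's adjusted p = 0.90).
MiR-451-5p, which is abundant in red blood cells, went the other way. It had 4239, 2201 and 1374 normalized reads in MS, against 412, 386 and 310 in LW, with no overlap (log2 fold change 2.67, SE 0.38, limma's adjusted p = 8.6e-05). After the GC correction the log2 fold change was 1.10 (limma's adjusted p = 0.020). The other 7 listed arms were below the filter. Of these PN-95-5p, whose hairpin matches mir-1248, had the highest values, at 8.63, 16.5 and 3.38 normalized reads in MS and 2.51, 3.25 and 0.91 in LW, and was not tested.

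**Figure D4:**
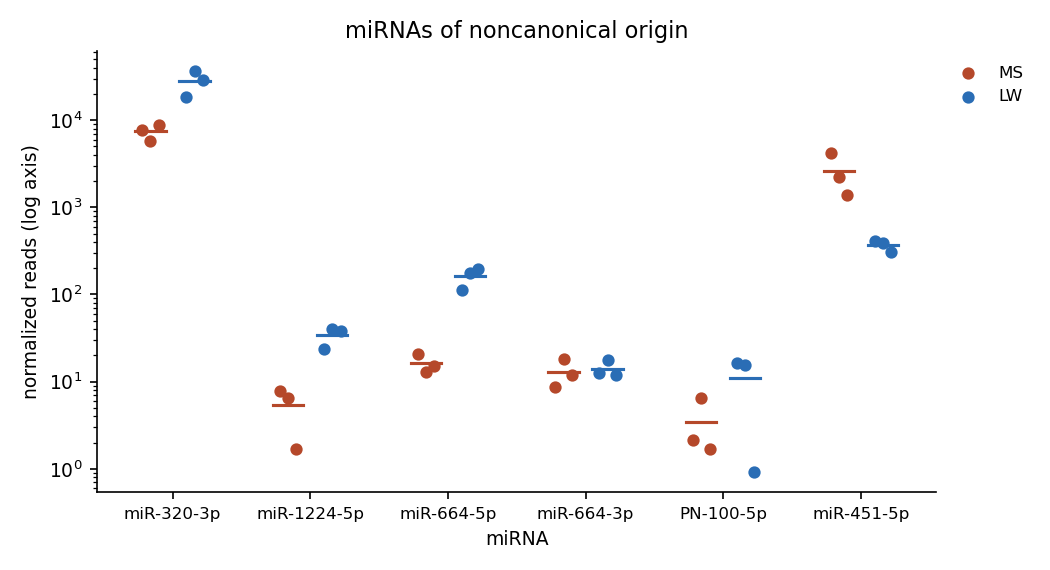
Normalized reads (logarithmic axis) of miR-320-3p and of the 5 tested arms of other miRNAs with a noncanonical origin, in 3 MS and 3 LW libraries each. Points are libraries and lines breed means; miR-320-3p, miR-1224-5p and miR-664-5p are lower in MS, miR-451-5p is higher, and miR-664-3p and PN-100-5p overlap.

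The miRNAs whose pattern was most like that of miR-320-3p were found by Pearson's r of log2(normalized reads + 1) over the 6 libraries. As the libraries are 3 of each breed, any miRNA with a large difference in the same direction has a high r, and 108 of the other 547 tested miRNAs had an r above 0.9. After the breed mean was taken out, r describes only the spread among animals, which is also moved by what the values of a library share, such as its scaling. How many of the tested miRNAs have a high r after this step was not counted. A choice by r over all 6 libraries itself favours miRNAs with a high r after this step and with a breed difference in the direction of miR-320-3p. The 5 highest were miR-423-5p (r = 0.996, and 0.978 after the breed mean was taken out), miR-183-5p (0.991 and 0.928), the candidate PC-83-5p (0.990 and 0.925), miR-20a-5p of the miR-17-92 cluster (0.990 and 0.948) and let-7a-5p (0.986 and 0.881). PC-31-3p had an r of 0.959 and of 0.687 within breeds.
MiR-423-5p had 2736, 2029 and 2880 normalized reads in MS and 5758, 12153 and 8347 in LW, which is the order of miR-320-3p in all libraries of each breed. Like miR-320-3p it was lowest in MS replicate 2 and in LW replicate 1. Its log2 fold change was -1.73 (limma's adjusted p = 0.00039), and -0.83 after the GC correction (limma's adjusted p = 0.032). Let-7a-5p, a miRNA of developmental timing, was also lowest in these libraries, with 38797, 31252 and 33862 normalized reads in MS and 82740, 130537 and 118554 in LW. Its highest MS value was in replicate 1, however, and that of miR-320-3p in replicate 3.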

How the data were processed

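The authors isolated total RNA with a mirVana kit, made TruSeq small RNA libraries from it and used an Illumina HiSeq. Their program ACGT101-miR, with a version not given in the sources used here, filtered out adapters, junk reads and other RNA classes and placed the rest on miRBase and Sscrofa10.2. The deposited unit is a signal: per-library reads of the most abundant sequence, normalized by the authors to total mappable reads. The mean and total columns were not used, and 4 lines are not reported here.

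In each library 93.3% to 95.7% of values up to 20 reads were whole multiples of 1 read (within 0.1), which gave 1038961 to 3419300 recovered reads. One read was worth 0.720 to 1.69 normalized reads.

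The breed test was limma 3.58.1 under R 4.3.3 (eBayes with trend, pseudocount 1, MS minus LW) over the 548 miRNAs with a breed mean of at least 10. A miRNA was called at a Benjamini-Hochberg adjusted p under 0.05. With 6 libraries of 1 animal each, p-values rest on the spread between libraries, which holds animal and library preparation together. Limma also shares this spread over the tested miRNAs. Without the trend, miR-320-3p had an SE of 0.35 and limma's adjusted p was 0.0016. On simulated reads over 530 miRNAs the breed test recovered 76.6% of 94 changes of 2-fold and all 104 of 4-fold. It also called 6 of 332 unchanged miRNAs. The simulation set the same spread for every miRNA, so it does not give the recovery for a miRNA with a larger spread. edgeR 4.0.16 on the recovered reads called 345 miRNAs, and DESeq2 1.42.0 was also run. Ratios used exact permutation tests (scipy 1.17.1), and folding used RNAfold 2.7.2.

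Named miRNAs are the members, same-seed miRNAs, the list of other noncanonical miRNAs, rank neighbours and the 5 with the highest r. Members and lists were chosen with earlier results of these data known. Same-numbered replicates came from different sows.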

Additional observations from a re-analysis of the deposited data

How the results depend on the processing

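The call and direction of miR-320-3p held under all 19 alternatives tried, with log2 fold changes of -2.17 to -1.01 and adjusted p-values from 1.1e-08 (DESeq2) to 0.018 (replicate block with the GC correction). PC-31-3p was called lower in the 18 that gave it a value (-2.40 to -1.45), and it was below the filter at 1000 normalized reads. With the replicate block alone miR-320-3p was at -1.89 (adjusted p = 0.0012 from limma) and 332 miRNAs were called. Same-numbered libraries had correlations of 0.0047, -0.21 and 0.097 in their deviations from the breed mean. MS replicate 2 went best with LW replicate 1 (0.36). With 3 libraries per breed the deviations depend on each other, so these values cannot decide whether same-numbered libraries share a batch. The filter at 1000 left 122 calls, against 341, among fewer miRNAs tested. MiR-664-3p, which was not called, changed sign with equal sums (0.26) and ranged from -0.42 to 0.084 when single libraries were left out; after the GC correction it was called lower (-1.37). PN-100-5p was called only without LW replicate 3 (-2.08), and miR-423-5p was not called with block and GC correction together (-0.83, adjusted p = 0.0503). The exact tests of the share and the ratio cannot pass with 3 animals against 3. MiR-320-5p and the mirtron arms are limited by depth.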
